A study of Mus musculus with 6 samples.

Results

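The protein tyrosine phosphatase receptor genes Ptprd and Ptprt are described here through the places where PTBP1 and PTBP2 were crosslinked to their nuclear RNA in newborn mouse cortex. Their members are all listed read intervals whose midpoint lay on the minus strand of chromosome 4 from 75.6 to 77.86 Mb (Ptprd) or of chromosome 2 from 161.35 to 162.48 Mb (Ptprt), in the mm9 build. These were 21479 of the 940882 distinct intervals of all libraries, 20326 in Ptprd and 1153 in Ptprt. The genes were chosen by the number of listed sites they held in these same libraries, so their levels are given as a description and no significance test was made on them.

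Ptprd and Ptprt encode receptor-type protein tyrosine phosphatases, membrane proteins with an extracellular adhesion part and an intracellular phosphatase part. PTPRD belongs to the LAR subfamily and acts as a presynaptic organiser: it binds partners on the facing cell, such as IL1RAPL1 and SLITRK proteins, and its small alternatively spliced exons set which partners it binds. PTPRT belongs to the MAM-domain subfamily, whose members adhere to the same molecule on another cell, and it is found mostly in the nervous system. PTBP1 and PTBP2 are splicing regulators that contact stretches of pyrimidines in RNA. Neural progenitors contain much PTBP1, and neurons switch to PTBP2 during early development. Both phosphatase genes are very long: in the GRCm38 annotation (GENCODE M21) Ptprd (ENSMUSG00000028399.18) spans 2270724 bases and Ptprt (ENSMUSG00000053141.16) 1139158 bases, of which exons take 1.01% and 1.11%. No mm9 gene model or genome was used here, so no site was placed in an exon, intron or UTR and no sequence is shown.

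The cortices were of postnatal day 1 mice of BL6/129Sv background, and protein was crosslinked to RNA with ultraviolet light before immunoprecipitation from nuclear fractions. The FLAG immunoprecipitations were of wild-type cortex (replicates 1 and 2), of cortex with Rosa-PTBP1 and Emx1-cre (1 library), and of cortex with both of these and homozygous PTBP2 loxp/loxp alleles (1 library). A polyclonal PTBP2 antibody served for 1 library of wild-type cortex and 1 of Rosa-PTBP1; Emx1-cre cortex. Rosa-PTBP1 is the transgene for FLAG-tagged PTBP1, and Emx1-cre drives recombination in the dorsal forebrain lineage, so cortical cells of other origin keep the wild-type state. Wild-type cortex has no FLAG-PTBP1, and its FLAG libraries are the background of the procedure. The labels do not say whether libraries came from separate or pooled animals.

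A site is a run of distinct intervals on 1 strand that overlap or touch, and a stacked site is built from 5 or more of them. The lists held between 26665 and 351602 distinct intervals and between 9567 and 73519 sites. FLAG wild-type replicate 1 stood apart, since 85.8% of its sites were a single interval, against 15.1% in FLAG Rosa-PTBP1. The labels name no sequencing run, but the read names start with a prefix that is taken here as the run. The prefix was WA047 in the FLAG libraries other than this replicate. The PTBP2 libraries and replicate 1 each mixed 2 other prefixes, in differing proportions. Antibody and prefix can therefore not be told apart where the transgenic FLAG libraries are compared with PTBP2. The PTBP2 Rosa-PTBP1 list held few sites on chromosome 4 beyond 60 Mb, on chromosomes 5 to 9 and on X, and FLAG Rosa-PTBP1 held few on chromosome 10. With 1 library a group, the 95% intervals below are exact and cover counting error only.

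Ptprd was densely covered in the libraries of both proteins. FLAG Rosa-PTBP1 listed 934 Ptprd sites, FLAG Rosa-PTBP1 with PTBP2 loxp/loxp 663 and PTBP2 wild type 437. FLAG wild-type replicate 1 listed 721 sites in Ptprd and replicate 2 listed 35. As a share of the library, Ptprd took 21.7 of 1000 sites in FLAG Rosa-PTBP1 (95% interval 20.4 to 23.1), 19.0 with PTBP2 loxp/loxp (17.6 to 20.5) and 15.9 in PTBP2 wild type (14.5 to 17.5). In the background libraries the share was 9.81 (9.11 to 10.5) and 3.66 (2.55 to 5.08). These 3 libraries lay above both background libraries, and PTBP2 Rosa-PTBP1, with 1 site (0.0442 per 1000), lay below them, on a stretch of chromosome 4 where its list is nearly empty. The background libraries differed from each other by more than their counting intervals.

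**Figure D1:**
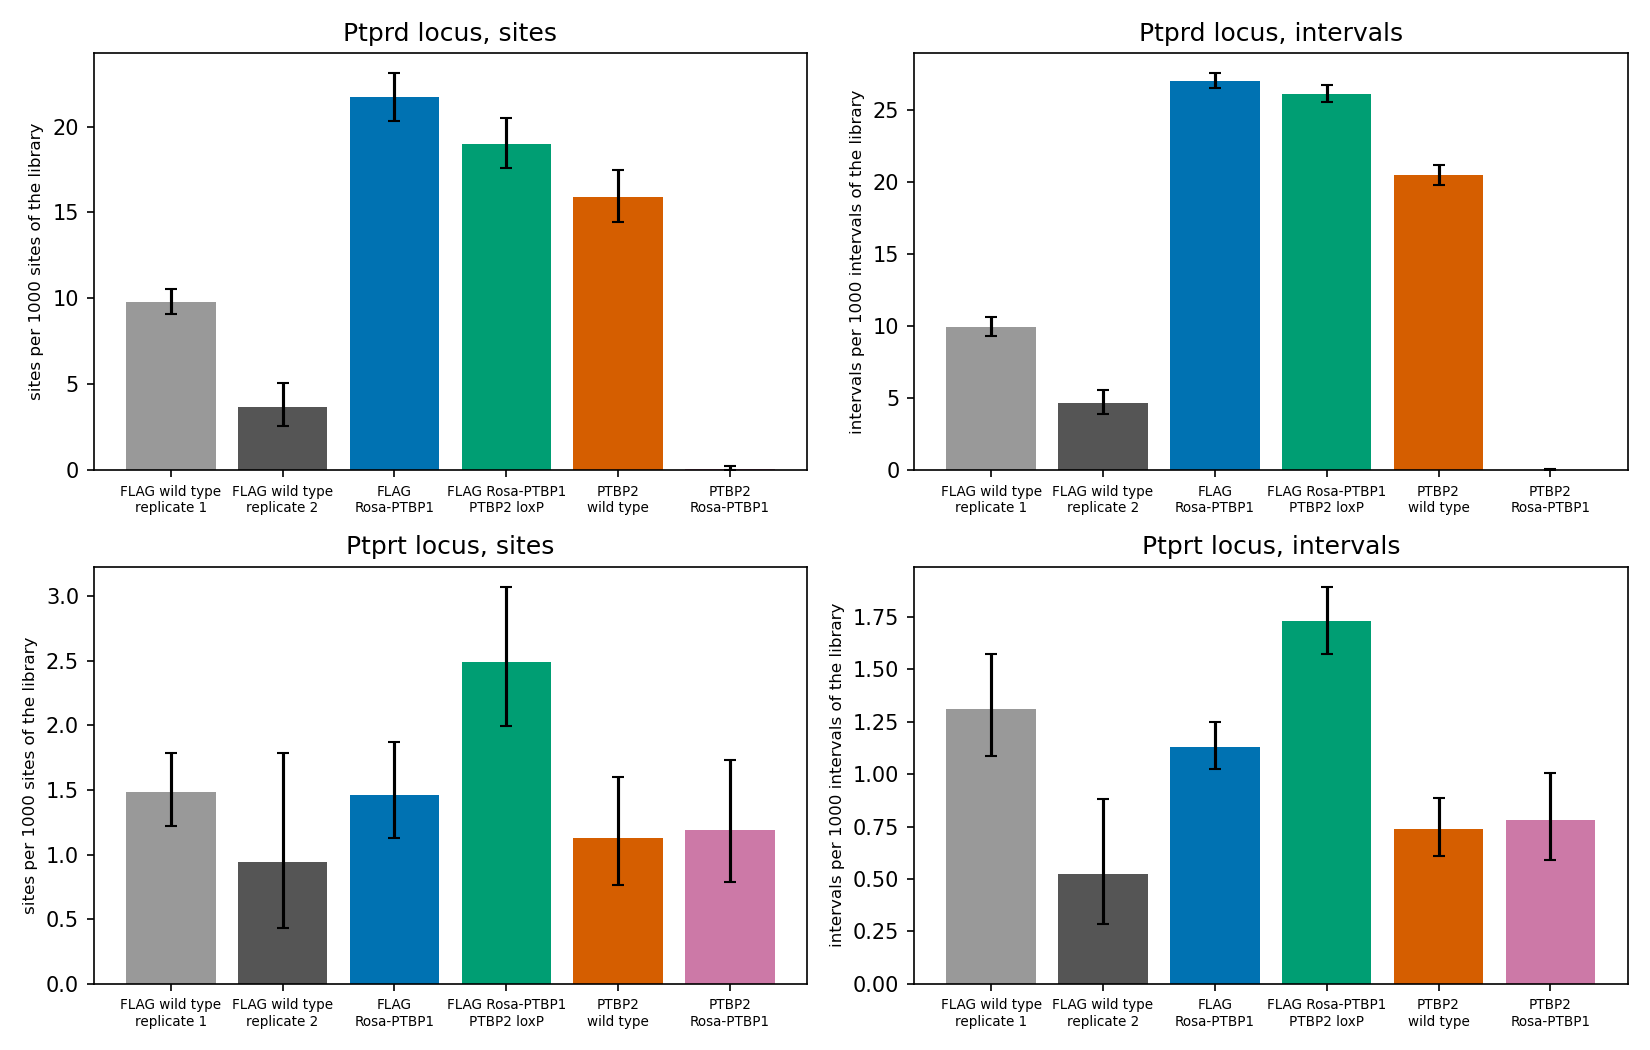
Share of each library's sites (left) and distinct intervals (right) that lay in Ptprd (top) and Ptprt (bottom), per 1000; bars are 1 library each and error bars exact 95% counting intervals. Ptprd ranges from 3.66 to 21.7 sites per 1000 outside PTBP2 Rosa-PTBP1, which is nearly empty around Ptprd, while Ptprt stays between 0.941 and 2.49.

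Set against the mean of the 2 background shares, the Ptprd share of FLAG Rosa-PTBP1 sites was 3.22 times as high. It was 2.21 times replicate 1 (2.01 to 2.44) and 5.93 times replicate 2 (4.24 to 8.57). Replicate 2 is the background library that shares the read-name prefix WA047 with FLAG Rosa-PTBP1. The mean therefore depends on which replicate is used. PTBP2 wild type was 1.62 times replicate 1 (1.44 to 1.83), with which it shares 2 read-name prefixes in unlike proportions. The same prefix made up 30.3% of all intervals in PTBP2 wild type and 95.0% in replicate 1. The Ptprd sites of replicate 1 were of another build: 82.8% were a single interval and 2 of 721 were stacked. In FLAG Rosa-PTBP1 10.1% were a single interval and 634 of 934 were stacked. Stacked sites also made up 442 of 663 with PTBP2 loxp/loxp, 237 of 437 in PTBP2 wild type and 10 of 35 in replicate 2. In the whole lists they made up 24241 of 43026 in FLAG Rosa-PTBP1, 17571 of 34912 with PTBP2 loxp/loxp and 9652 of 27469 in PTBP2 wild type. In the background they made up 402 of 73519 in replicate 1 and 857 of 9567 in replicate 2. The libraries thus differ in build over their whole lists, beyond Ptprd. Of the 1813 separate Ptprd regions formed by merging the intervals of all libraries, 607 (33.5%) were listed in replicate 1 and nowhere else, and 2 (0.11%) in both background replicates. On the 12 chromosomes filled in every library these shares were 38.8% and 0.25%. The regions counted there include those listed in PTBP2 Rosa-PTBP1 alone, a library with 1 interval in Ptprd, which lowers these percentages. Among 100-kb windows with 20 or more sites in the 2 libraries, FLAG Rosa-PTBP1 was 2-fold or more above replicate 1 in 12 of 23 Ptprd windows, against 38.4% of all windows tested, and 2-fold or more below it in 2, against 11.4%. Against replicate 2 it was 2-fold or more above in 19 of 19, against 86% of all windows, and 2-fold or more below in 0, against 1.07%. PTBP2 wild type was 2-fold or more above replicate 1 in 5 of 23 Ptprd windows, against 26.7%, and below in 2, against 19.6%. These figures come from the lists that chose the gene, and nothing is read from them.

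Ptprd sites ran over the whole locus and were densest at its 5' end, which is the upper end of a gene on the minus strand. The last 60 kb, from 77.8 to 77.86 Mb, make up 2.65% of the locus. They held 119 sites in FLAG Rosa-PTBP1, 120 with PTBP2 loxp/loxp and 83 in PTBP2 wild type, the most of any bin in each of these libraries. In intervals this was 22.7%, 30.6% and 31.6% of the Ptprd total. FLAG wild-type replicate 1 had 44 sites there, 7.06% of its Ptprd intervals, and its fullest bin was 77.4 to 77.5 Mb with 71 sites. Replicate 2 had 8 of its 35 sites in the last 60 kb (22.9%), its fullest bin, and 33.9% of its Ptprd intervals. The concentration at the 5' end was thus present in this background library as well. The share of sites in this bin was 4.62 times higher in FLAG Rosa-PTBP1 than in replicate 1 (3.24 to 6.69).

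**Figure D2:**
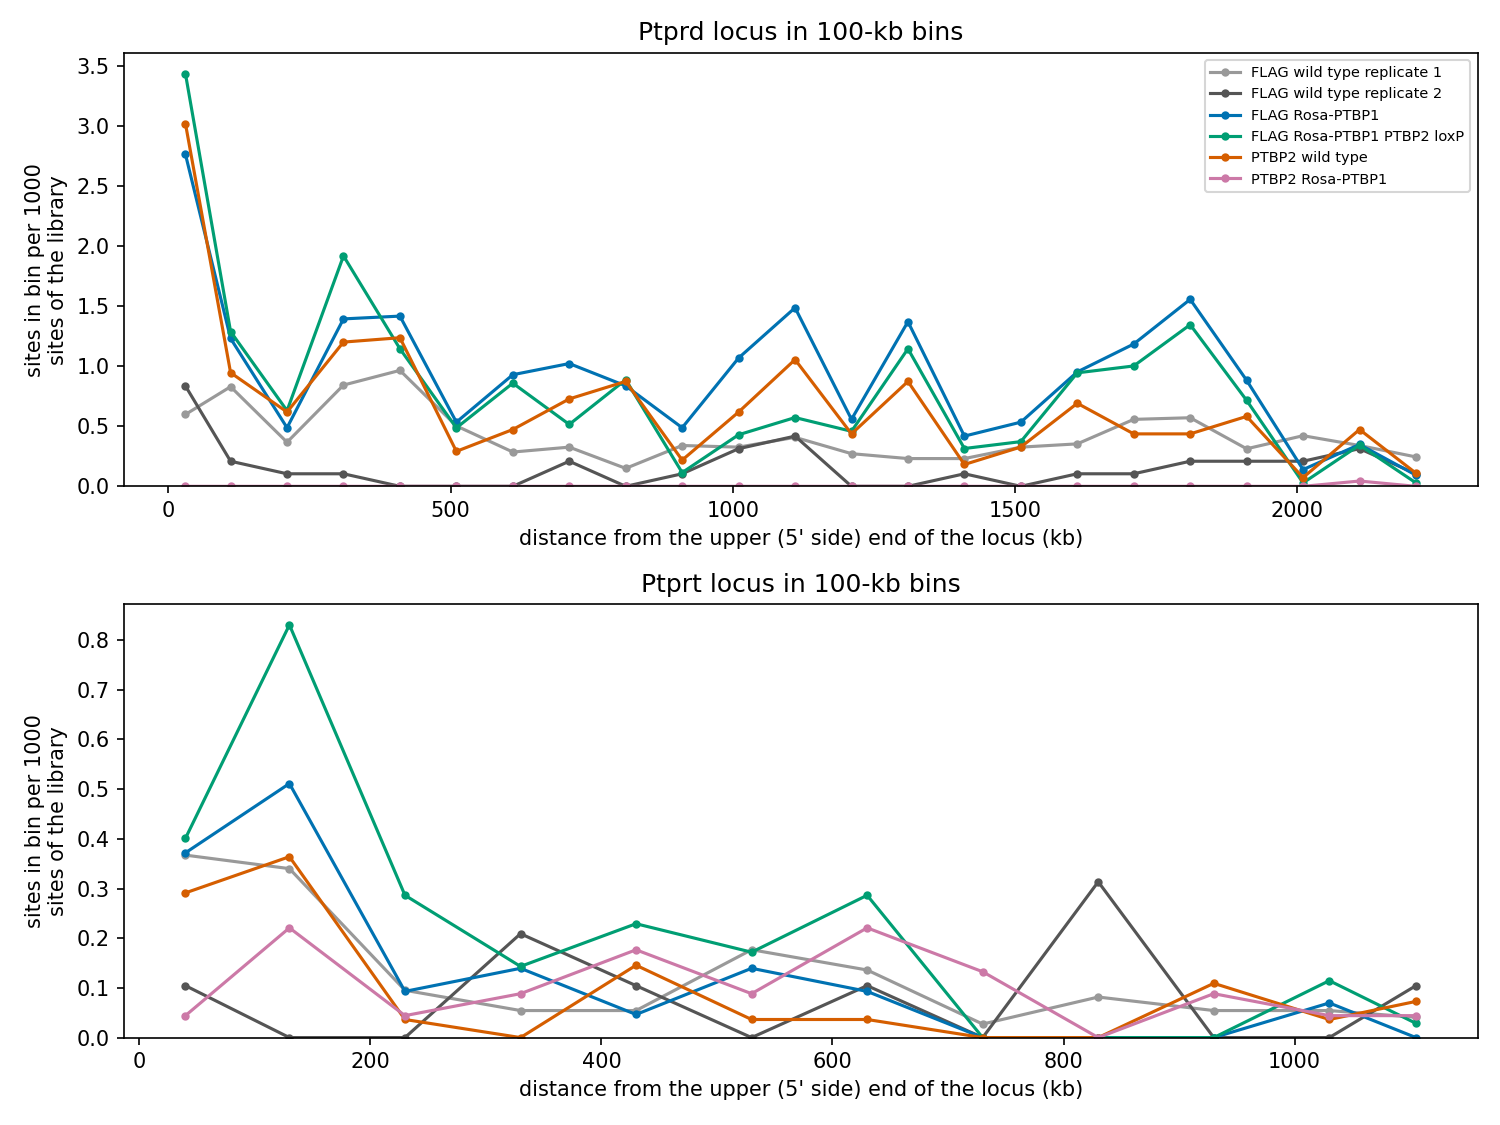
Sites in each 100-kb bin per 1000 sites of the library, against distance in kb from the upper (5' side) end of Ptprd (top) and Ptprt (bottom); the first bin of each is shorter (60 and 80 kb), and lines are 1 library each. FLAG Rosa-PTBP1, its PTBP2 loxp/loxp counterpart and PTBP2 wild type peak in the first 60 kb of Ptprd, with 119, 120 and 83 sites, and in the first 200 kb of Ptprt; PTBP2 Rosa-PTBP1 has 0 sites in the first 60 kb of Ptprd.

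Over the 23 Ptprd bins the site counts of FLAG Rosa-PTBP1 followed those of PTBP2 wild type (Pearson's r 0.88, Spearman's rho 0.76) and of the PTBP2 loxp/loxp library (0.90 and 0.85). With replicate 1 both measures were 0.49. The bins share a gene, its transcript level and its mappability, and the first bin is shorter, so these values describe the profiles only.

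The deepest Ptprd region lay about 33.8 kb from the upper end, at 77825404 to 77827065 on chromosome 4. It was the region with most intervals in each of the 3 libraries: 544 in FLAG Rosa-PTBP1, 538 with PTBP2 loxp/loxp and 403 in PTBP2 wild type, against 7 and 10 in the background replicates. The background lists are shorter, so the raw counts are not on 1 scale. Per 100000 intervals the region took 155 in FLAG Rosa-PTBP1, 202 with PTBP2 loxp/loxp and 259 in PTBP2 wild type. In background replicates 1 and 2 it took 7.93 and 37.5. The base covered by most intervals was 77826677 in FLAG Rosa-PTBP1 and 77826678 in the other 2, under 41, 43 and 36 intervals. Across the 1662 bases the coverage of FLAG Rosa-PTBP1 had r = 0.89 with the PTBP2 loxp/loxp library and 0.84 with PTBP2 wild type, while FLAG wild-type replicate 2 had r = 0.23 with FLAG Rosa-PTBP1. Neighbouring bases share intervals, so no test goes with these values. The region carried many separate peaks, and 353 different 5' ends among the 544 FLAG Rosa-PTBP1 intervals.

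**Figure D3:**
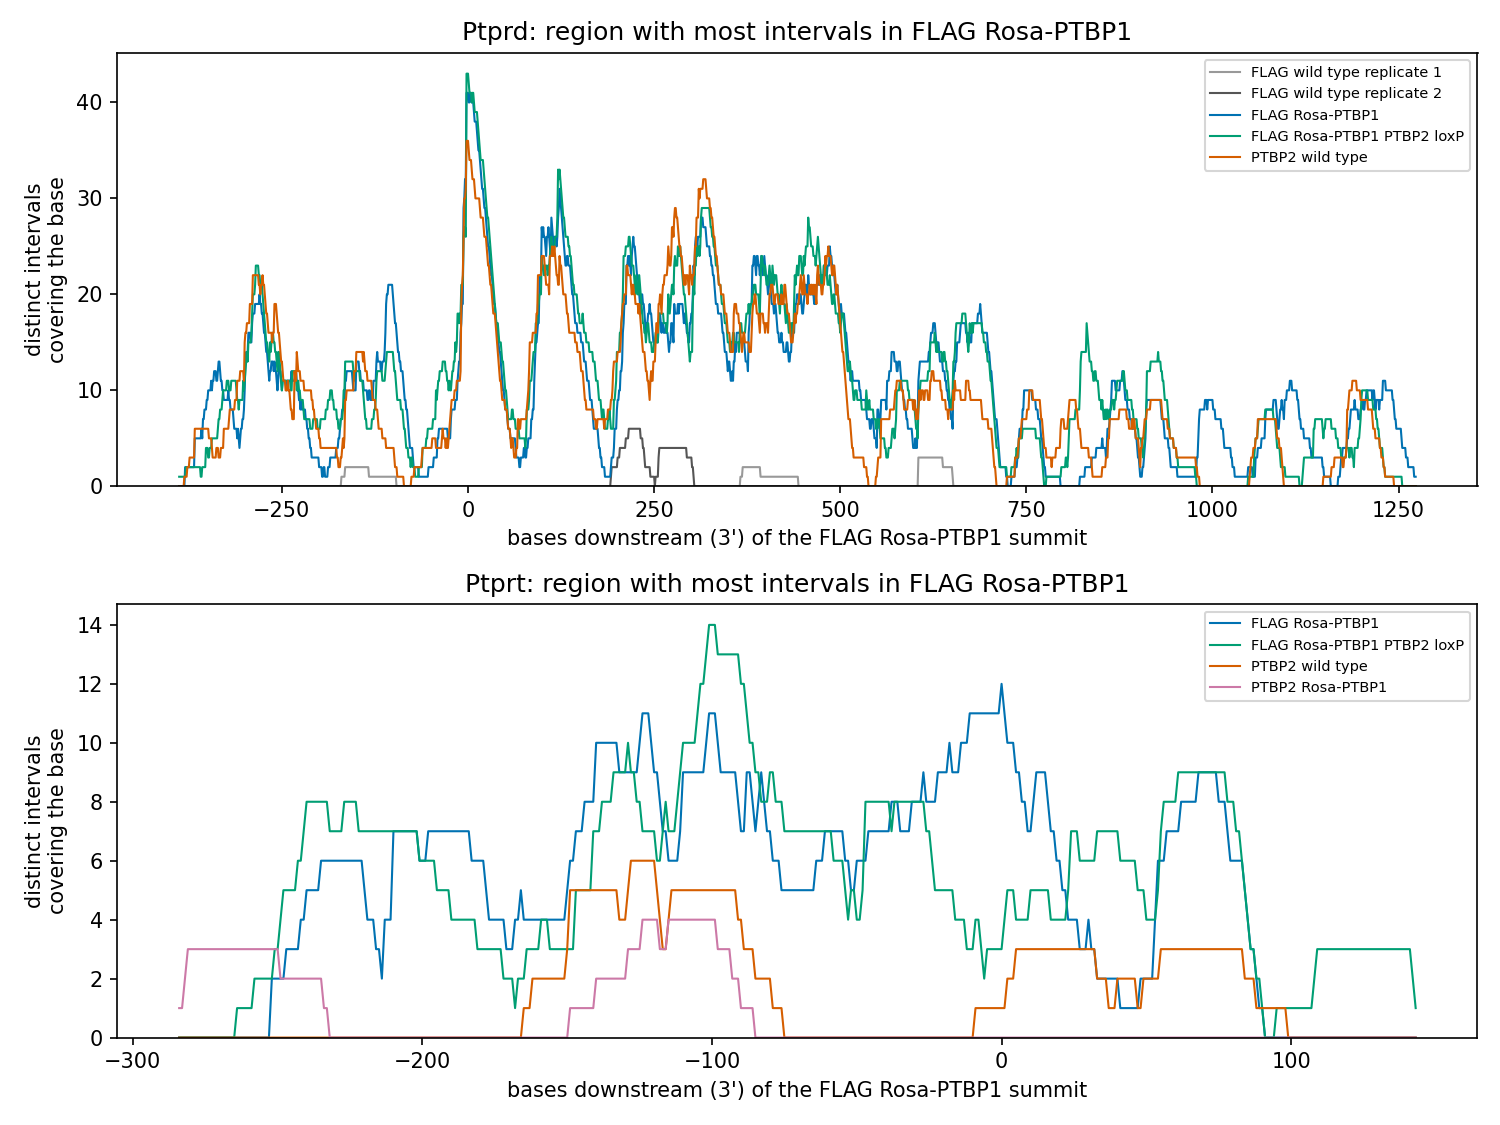
Number of distinct intervals over each base of the region with most intervals in Ptprd (top) and Ptprt (bottom), against distance in bases downstream of the FLAG Rosa-PTBP1 summit; each line is 1 library. In Ptprd the peaks of FLAG Rosa-PTBP1, PTBP2 loxp/loxp and PTBP2 wild type fall together, with 41, 43 and 36 intervals at the summit, and in Ptprt the profiles are lower and less alike.

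Next to it, 26.3 kb from the upper end, the region 77833039 to 77834317 held 305, 278 and 97 intervals in the same order of libraries, and 3 and 0 in the background. At 77797699 to 77798082 there were 136, 153 and 120, and at 77689211 to 77689867 there were 145, 148 and 125, with 1 background interval in all. The region 77685610 to 77685915, with 52, 84 and 41 intervals, had its summit at 77685694 in both FLAG Rosa-PTBP1 and PTBP2 wild type and at 77685692 with PTBP2 loxp/loxp. These 5 regions lay between 26.3 and 174.2 kb from the upper end, and each was listed in the FLAG transgenic libraries and in PTBP2 wild type. The 5' ends of reads are given as positions only, and their distance from the crosslinked base was not tested. In the region at 77797699 the commonest 5' end was 77797931 for 16 of 120 intervals in PTBP2 wild type and for 9 of 153 with PTBP2 loxp/loxp, and 77797929 for 7 of 136 in FLAG Rosa-PTBP1.

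**Figure D4:**
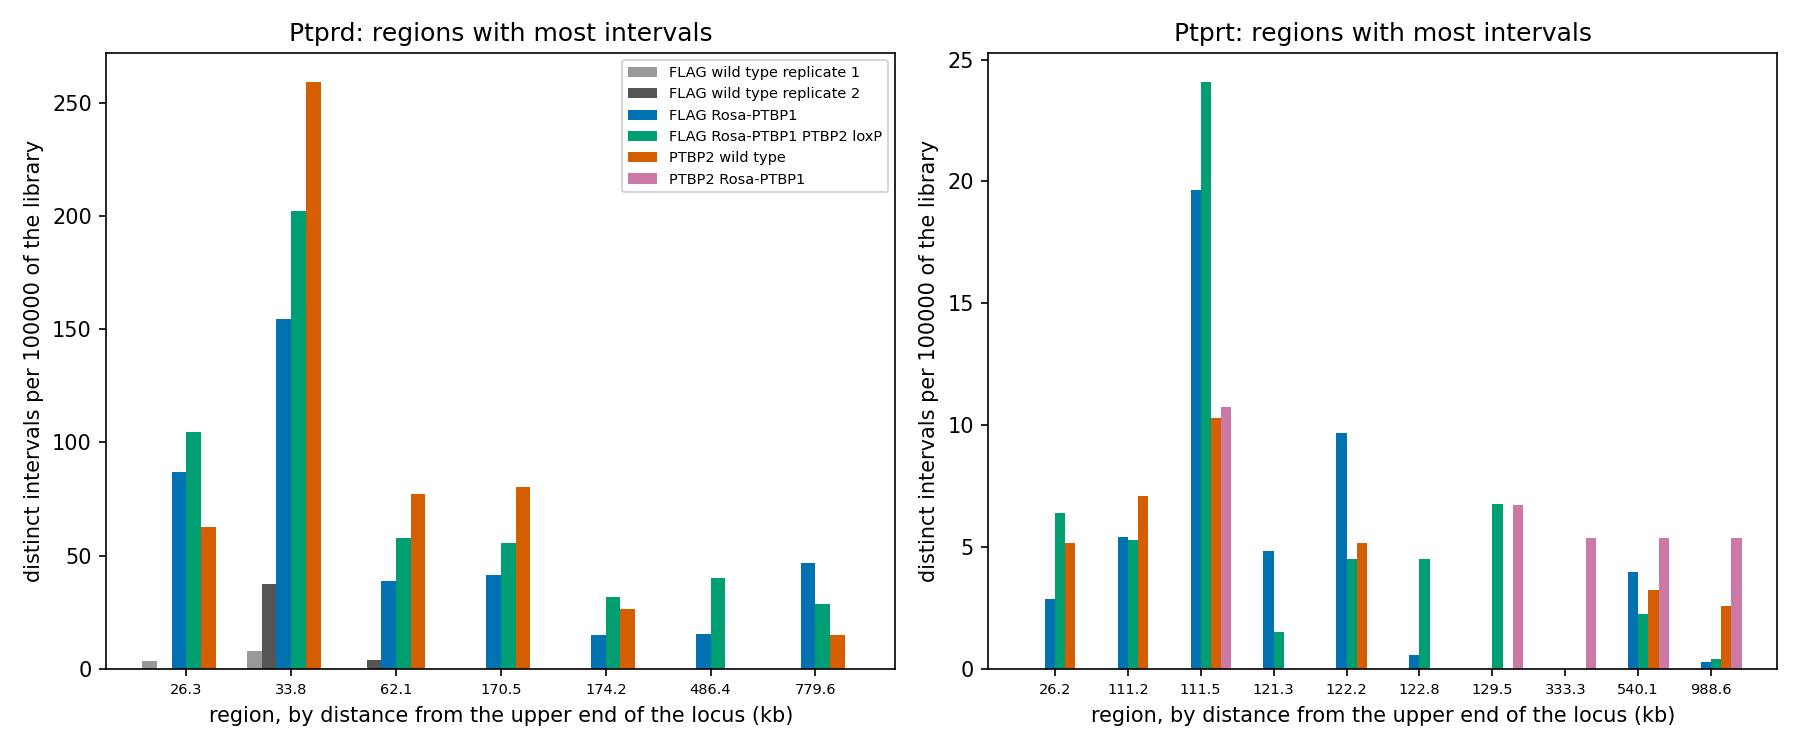
Distinct intervals per 100000 of the library in the regions with most intervals of Ptprd (left) and Ptprt (right), ordered by distance from the upper end of the locus in kb; each bar is 1 library. The Ptprd region at 33.8 kb reaches 155, 202 and 259 in FLAG Rosa-PTBP1, PTBP2 loxp/loxp and PTBP2 wild type, and the highest Ptprt region 24.1.

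Other Ptprd regions, named for their depth or for the highest and lowest ratios, were listed unevenly between the FLAG and PTBP2 libraries. The third deepest region of FLAG Rosa-PTBP1, 779.6 kb from the upper end at 77079902 to 77080815, held 164 intervals there, 76 with PTBP2 loxp/loxp and 23 in PTBP2 wild type. Its share was 3.15 times higher in FLAG Rosa-PTBP1 than in PTBP2 wild type (2.03 to 5.11). The region 77373310 to 77373867 held 53 and 107 intervals in the FLAG transgenic libraries and was listed at 0 in PTBP2 wild type. The same held for 76732580 to 76732747 (38 and 20) and 76596269 to 76596462 (34 and 24). In the other direction, 77404592 to 77404690 held 19 intervals in PTBP2 wild type, 5 in FLAG Rosa-PTBP1 and 8 with PTBP2 loxp/loxp. The region 77717582 to 77717697 held 16 in PTBP2 wild type and was listed at 0 in FLAG Rosa-PTBP1. A region at 0 passed no threshold in that list and may still have held reads.

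By counts of regions, 178 of 1813 Ptprd regions (9.82%) were listed in FLAG Rosa-PTBP1, with PTBP2 loxp/loxp and in PTBP2 wild type alike, against 3.81% on the filled chromosomes. The filled chromosomes also count regions listed in PTBP2 Rosa-PTBP1 alone, a library nearly absent from Ptprd, which lowers the 3.81%. The 178 Ptprd regions carried 53.2%, 64.0% and 74.0% of the Ptprd intervals of FLAG Rosa-PTBP1, PTBP2 loxp/loxp and PTBP2 wild type. On the filled chromosomes such regions carried 47.2%, 55.9% and 63.1%. Of the PTBP2 wild-type sites in Ptprd, 290 of 437 (66.4%, 61.7 to 70.8) lay over at least 1 base of a site of FLAG Rosa-PTBP1, where the filled chromosomes gave 40.4%. Seen from the longer list, 272 of 934 FLAG Rosa-PTBP1 sites (29.1%) overlapped a PTBP2 wild-type site, against 23.7%. Among stacked PTBP2 wild-type sites, 188 of 237 (79.3%) overlapped any FLAG Rosa-PTBP1 site, against 70.7%. A denser locus leaves less room for sites to miss each other, and its part in the overlap was not tested. Where both libraries had 10 or more intervals in a region, the FLAG Rosa-PTBP1 and PTBP2 wild-type summits lay within 10 bases in 33 of 57 Ptprd regions (57.9%, against 45.7% of 2098).

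The share of Ptprd sites was 1.36 times higher in FLAG Rosa-PTBP1 than in PTBP2 wild type (1.22 to 1.53), and 1.07 times by stacked sites (0.916 to 1.24). Of 647 windows of 1 Mb, 39.7% had a ratio by sites as high or higher, and their median was 1.17. Among Ptprd regions with 20 or more intervals in these 2 libraries, 47 of 133 were 2-fold or more higher in FLAG Rosa-PTBP1, against 31.1% of all regions tested, and 11 were 2-fold or more lower, against 19.3%. The median log2 ratio was 0.41, against 0.03 over all. The 2 deepest regions, both near the 5' end, differed in direction: the deepest had 0.597 times the PTBP2 wild-type share in FLAG Rosa-PTBP1 (0.524 to 0.681), and the next, 26.3 kb from the upper end, had 1.39 times (1.10 to 1.77). The highest ratio of any Ptprd bin, picked after the values were seen, was at 76 to 76.1 Mb, with 67 FLAG Rosa-PTBP1 and 12 PTBP2 wild-type sites (3.56 times by share, 1.91 to 7.24). From 75.7 to 75.8 Mb, nearer the 3' end, there were 15 and 13 sites (0.737 times, 0.327 to 1.68). In the third of the locus nearest the 3' end lay 226 of 934 FLAG Rosa-PTBP1 sites (24.2%, 21.5 to 27.1), 154 of 663 with PTBP2 loxp/loxp (23.2%) and 78 of 437 in PTBP2 wild type (17.8%, 14.4 to 21.8). Background replicates 1 and 2 had 29.7% (26.4 to 33.2) and 34.3% (19.1 to 52.2) of their Ptprd sites there. The difference between these shares was not tested, and the libraries differ in depth and read-name prefix.

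The PTBP2 loxp/loxp comparison asks where FLAG-PTBP1 was crosslinked when PTBP2 could be deleted in the same cells. The reads of both libraries carried the prefix WA047. Over Ptprd as a whole the share of sites was 0.875 times that without loxP alleles (0.791 to 0.967), by intervals 0.967 (0.937 to 0.997) and by stacked sites 0.962 (0.850 to 1.09). With sites counted against the 12 filled chromosomes, since FLAG Rosa-PTBP1 lacks most of chromosome 10, it was 0.95 (0.859 to 1.05). Sites merged across gaps of up to 50 bases gave 0.809 (0.718 to 0.910), and the locus trimmed by 50 kb at each end gave 0.835 (0.749 to 0.931). Whether the difference was within counting error thus depends on the setting. Among 1-Mb windows, 53.5% of 664 had a ratio of PTBP2 loxp/loxp over FLAG Rosa-PTBP1 as high as the 0.875 of Ptprd or higher. Among regions with 20 or more intervals in the PTBP2 loxp/loxp and PTBP2 wild-type libraries, 34 of 104 in Ptprd were 2-fold or more higher with PTBP2 loxp/loxp, against 26.8% of all, and 6 were lower, against 19.3%. Over all Ptprd sites the PTBP2 loxp/loxp library against PTBP2 wild type was 1.19 times as high (1.06 to 1.35) by sites and 1.02 (0.873 to 1.20) by stacked sites. Of 609 windows of 1 Mb, 41.4% had a ratio by sites as high or higher, and their median was 1.08.

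Within Ptprd single regions and windows differed in both directions. Of 187 regions with 20 or more intervals in the 2 FLAG transgenic libraries, 31 were 2-fold or more higher with PTBP2 loxp/loxp, against 11.7% of all regions tested, and 28 were 2-fold or more lower, against 16.3%. The median log2 ratio was 0.20, against 0.03 over all. By 100-kb windows, 3 of 21 were 2-fold or more lower, against 12% of all windows, and 0 were higher, against 3.36%. These 3 windows, named after their values were seen, lie side by side from 76.7 to 77 Mb. FLAG Rosa-PTBP1 listed 64, 46 and 21 sites in them and the PTBP2 loxp/loxp library 20, 15 and 4, which gave ratios of 0.385 (0.221 to 0.645), 0.402 (0.208 to 0.733) and 0.235 (0.0586 to 0.696). PTBP2 wild type listed 29, 17 and 6 sites in the same windows.

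The region 77373310 to 77373867 held 53 intervals in FLAG Rosa-PTBP1 and 107 with PTBP2 loxp/loxp, 2.67 times by share (1.90 to 3.78). At 76119410 to 76119657 there were 6 and 33 intervals, 7.27 times by share (3.01 to 21.2), and none in PTBP2 wild type. The region 77685283 to 77685591 was listed at 0 in FLAG Rosa-PTBP1, with 48 intervals under PTBP2 loxp/loxp and 15 in PTBP2 wild type. The region 77375178 to 77375341 was also listed at 0 without loxP alleles and held 25 intervals with them and 3 in PTBP2 wild type. Conversely, 77167113 to 77167260 (28 intervals), 77127545 to 77127675 (25) and 76803756 to 76803938 (20) were present in FLAG Rosa-PTBP1 and listed at 0 with PTBP2 loxp/loxp. Of these 3, PTBP2 wild type held 1 interval in the second and 0 in the others. Each of these values comes from 1 library a genotype, so the spread between cortices is unknown.

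In PTBP2 Rosa-PTBP1 cortex Ptprd held 1 interval. The same list held 106 sites on chromosome 4 at 60 Mb and beyond outside Ptprd, where PTBP2 wild type held 776, and 550 before 60 Mb, where PTBP2 wild type held 396. The absence of Ptprd sites in this list cannot be told apart from the near-empty stretch around it, and no difference between genotypes is drawn for PTBP2 on Ptprd.

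Ptprt held far fewer sites. There were 63 in FLAG Rosa-PTBP1, 87 with PTBP2 loxp/loxp, 31 in PTBP2 wild type and 27 in its Rosa-PTBP1 counterpart, while FLAG wild-type replicates 1 and 2 listed 109 and 9. By share this was 1.46 of 1000 sites in FLAG Rosa-PTBP1 (1.13 to 1.87), 2.49 with PTBP2 loxp/loxp (2.00 to 3.07), 1.13 in PTBP2 wild type (0.767 to 1.60) and 1.19 in Rosa-PTBP1 cortex with the PTBP2 antibody (0.786 to 1.73). The background shares were 1.48 (1.22 to 1.79) and 0.941 (0.430 to 1.79). The FLAG Rosa-PTBP1 share was 1.21 times the mean background, 0.988 times replicate 1 (0.712 to 1.36) and 1.56 times replicate 2 (0.770 to 3.56). By its share of sites Ptprt was thus not separated from the background in this library, unlike Ptprd. In PTBP2 loxp/loxp cortex the Ptprt share of sites was above both replicates, by 1.68 (1.25 to 2.25) and 2.65 (1.33 to 5.99). By intervals FLAG Rosa-PTBP1 was 0.862 times replicate 1 (0.699 to 1.07) and 2.16 times replicate 2 (1.27 to 3.98). PTBP2 wild type was 0.563 times replicate 1 by intervals (0.431 to 0.735) and 1.41 times replicate 2 (0.807 to 2.66). For PTBP2 Rosa-PTBP1 these values were 0.593 (0.425 to 0.820) and 1.48 (0.818 to 2.88).

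The build of the Ptprt sites differed from the background. Stacked sites numbered 29 in FLAG Rosa-PTBP1, 39 with PTBP2 loxp/loxp, 10 in PTBP2 wild type and 1 in the PTBP2 library of Rosa-PTBP1 cortex, and both background replicates listed 0. Of the 109 sites of replicate 1, 95.4% were a single interval. Those background lists held few stacked sites anywhere, 402 and 857 in all, against 24241 in FLAG Rosa-PTBP1, so a 0 in them rests on few sites. The difference in build thus extends over the whole lists, beyond Ptprt.

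The Ptprt sites clustered toward the 5' end too. The upper 200 kb, 17.7% of the locus, held 39 of 63 sites in FLAG Rosa-PTBP1, 45 of 87 with PTBP2 loxp/loxp and 18 of 31 in PTBP2 wild type. Replicate 1 had 52 of 109 of its sites there, so the clustering was present in the background as well. PTBP2 Rosa-PTBP1 had 6 of 27 there and replicate 2 had 1 of 9. The bin from 162.3 to 162.4 Mb was the fullest in FLAG Rosa-PTBP1 (22 sites), with PTBP2 loxp/loxp (29) and in PTBP2 wild type (10).

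One region was the deepest of Ptprt in all 4 targeted libraries. It lay 111.5 kb from the upper end, at 162368319 to 162368746 on chromosome 2, and held 69 intervals in FLAG Rosa-PTBP1, 64 with PTBP2 loxp/loxp, 16 in PTBP2 wild type and 8 with that antibody in Rosa-PTBP1 cortex. Both background lists were at 0. Its share was 1.91 times higher in FLAG Rosa-PTBP1 than in PTBP2 wild type (1.10 to 3.52) and 1.23 times with PTBP2 loxp/loxp over without (0.859 to 1.75). Just beside it, 162368748 to 162368881 held 19, 14, 11 and 0 intervals in the same order. At 162357724 to 162357922 there were 34, 12, 8 and 0, and the PTBP2 loxp/loxp share was 0.467 times that without loxP alleles (0.220 to 0.924). In the opposite direction, 162350461 to 162350617 was listed at 0 in FLAG Rosa-PTBP1 and PTBP2 wild type, with 18 intervals under PTBP2 loxp/loxp and 5 in PTBP2 Rosa-PTBP1. The region 161939895 to 161939973 was small but listed in all 4, with 14, 6, 5 and 4 intervals. In all, 4 of the 267 Ptprt regions (1.5%) were listed in the 4 targeted libraries and 10 (3.75%) in the 3 other than PTBP2 Rosa-PTBP1, near the 1.86% and 3.81% of the filled chromosomes.

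Ptprt took a larger share of FLAG sites in PTBP2 loxp/loxp cortex than in Rosa-PTBP1 cortex without loxP alleles. The ratio was 1.70 (1.22 to 2.39) by sites, 1.53 (1.33 to 1.75) by intervals and 1.86 (1.12 to 3.11) by stacked sites. Of 664 windows of 1 Mb, 5.42% had a ratio as high or higher, and their median was 0.908. Against PTBP2 wild type the Ptprt share with PTBP2 loxp/loxp was 2.21 times as high (1.45 to 3.44). Of 609 windows of 1 Mb, 7.88% had a ratio as high or higher, and their median was 1.08. Of the 87 PTBP2 loxp/loxp sites in Ptprt, 25 (28.7%, 19.5 to 39.4) lay on a site of FLAG Rosa-PTBP1. In Ptprd 446 of 663 did (67.3%, 63.6 to 70.8), and on the filled chromosomes 48.4%. Seen from the other list, 25 of 63 FLAG Rosa-PTBP1 sites in Ptprt (39.7%, 27.6 to 52.8) lay on a PTBP2 loxp/loxp site. On the filled chromosomes this was 36.0%. The part of the lower site density of Ptprt in these overlaps was not tested. Of 6 Ptprt regions with 20 or more intervals in the 2 libraries, 1 was 2-fold or more higher, against 11.7% of all regions tested, and 2 were lower, against 16.3%; with 6 regions nothing is read from these counts.

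For PTBP2 itself Ptprt allows the comparison that Ptprd does not, since chromosome 2 was filled in both PTBP2 libraries. From 140 to 180 Mb outside Ptprt they listed 534 sites in Rosa-PTBP1 and 478 in wild-type cortex. The Ptprt share in Rosa-PTBP1 was 1.06 times that in wild type by sites (0.607 to 1.83) and 1.05 by intervals (0.755 to 1.46). Of 477 windows of 1 Mb, 69.4% had a ratio by sites as high or higher, and their median was 1.43. Counted against the 12 filled chromosomes the Ptprt ratio was 0.723 (0.415 to 1.25), so the direction depends on the denominator. The interval allows a fall or a rise of more than 1.5 times, and a difference was not detectable at this depth. Of the 27 PTBP2 Rosa-PTBP1 sites 4 lay on a PTBP2 wild-type site (14.8%, 4.19 to 33.7), and the 17.8% of the filled chromosomes is within this interval. Of the PTBP2 wild-type sites in Ptprt, 13 of 31 (41.9%, 24.5 to 60.9) lay on a FLAG Rosa-PTBP1 site, and of those on the filled chromosomes 40.4%.

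Per Mb of locus, Ptprd held 7.41 times as many FLAG Rosa-PTBP1 sites as Ptprt (5.74 to 9.73). The sites per Mb of Ptprd, 413 in FLAG Rosa-PTBP1, were matched or exceeded by 5 of 1012 strand-specific 1-Mb windows with 50 or more sites, and those of Ptprt, 55.8, by 154. In PTBP2 wild type 8 of 1063 windows reached the Ptprd level and 167 the Ptprt level. Of 1063 windows in the background, 4 reached the Ptprd and 85 the Ptprt level in replicate 1, and 17 and 193 in replicate 2. Ptprd thus ranked high in the background lists too. Transcript level was not measured in these lists, and its part in these ranks was not tested.

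The sites stopped close to the ends of the loci. The highest Ptprd site ended at 77857534, and the next minus-strand site beyond the upper bound lay at least 3071 kb away in each library. Below the lower bound there were 0 to 4 sites within 500 kb, the nearest 2.95 kb away in replicate 2. Ptprt had up to 3 sites within 500 kb beyond its upper bound, the nearest 0.233 kb away. On the plus strand both loci were listed at 0 in every library. Sites with a partner on the opposite strand within 1 kb were at most 0.0627% of any whole list, so this 0 is a property of the lists and no measure of background.

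The windows most like Ptprd over the 6 libraries, by Euclidean distance in log2 sites per Mb per 1000 sites, were on minus strands. The closest was 77 to 78 Mb of chromosome 6 (distance 0.97), followed by 29 to 30 Mb of chromosome 9 (1.53) and 49 to 50 Mb of chromosome 5 (1.66), among 1063 windows. All lie on chromosomes with few sites in PTBP2 Rosa-PTBP1, and this library counts in the distance. For Ptprt they were on plus strands, at 55 to 56 Mb of chromosome 3 (0.99), 66 to 67 Mb of chromosome 1 (1.10) and 35 to 36 Mb of chromosome 14 (1.13).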

How the data were processed

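The deposited lists give, per the file headers, reads in clusters significant at a false discovery rate. A line holds the position, strand and name of 1 read and no score, count or gene name; the start and end positions are the only values used. The submitters' processing notes name Bowtie and the mm9 build. The Bowtie version, the cluster caller and its level are not given in the sources here. Lines were collapsed to distinct intervals, and those that overlapped or touched on 1 strand were merged into sites; regions merge the intervals of all 6 libraries. Shares are of all sites or intervals of a library. Ratios of shares carry exact conditional binomial 95% intervals, and shares exact Clopper-Pearson intervals. A chromosome counted as filled unless its share of sites was under 0.5 times the median of the other libraries. Regions were named by rule: the 5 with most intervals in each targeted library, and the 3 highest and 3 lowest ratios of each comparison (pseudocount 0.5) among those with 20 or more intervals. Code was tested on simulated intervals. Python 3.11.15, pandas 2.3.3, numpy 2.4.6 and scipy 1.17.1 were used. Both genes, the rules and the lists were chosen with earlier results of these data known. Lists of related phosphatases and PTPRD partners were not analysed here, for want of mm9 gene models. Alternatives were distinct intervals, merging across gaps of up to 50 bases, stacked sites, loci trimmed by 50 kb, other denominators, overlap within 50 bases, single sequencing runs (read-name prefixes, since no label names a run) and leaving out either background replicate.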

Additional observations from a re-analysis of the deposited data

How the results depend on the processing

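Of 71 alternative values for 13 results, 61 stayed within the counting interval of the reported value (for comparisons with the background, within 1 SD of its 2 replicates), 10 moved outside it and 0 reversed a difference whose interval excluded 1. Part of the 61 could not have moved. The plus-strand counts were 0 in every setting, and values restricted to the prefix WA047 repeated values already given. With 2 background replicates, leaving out either always gives a value within 1 SD. The count of 61 is therefore no measure of robustness. The PTBP2 loxp/loxp share of Ptprd over PTBP2 wild type fell from 1.19 to 1.03 with sites merged across gaps of up to 50 bases and to 1.02 with stacked sites. The share of PTBP2 wild-type Ptprd sites on FLAG Rosa-PTBP1 sites was 80.9% by intervals, 71.7% with both lists cut to stacked sites and 61.7% with the locus trimmed. For Ptprt it was 61.7% by intervals and 80% by stacked sites, which number 10. The PTBP2 Rosa-PTBP1 share of Ptprt over PTBP2 wild type was 0.326 by stacked sites, from 1 site against 10. Ptprd over Ptprt per Mb was 11.9 by intervals and 10.9 by stacked sites; the cause was not tested for any of these. Leaving out a background replicate moved the FLAG Rosa-PTBP1 ratio between 2.21 and 5.93 for Ptprd and between 0.988 and 1.56 for Ptprt. FLAG Rosa-PTBP1 shares a read-name prefix with background replicate 2 only, and the transgenic FLAG libraries share none with PTBP2 wild type, so no value within a run exists there. Stacked sites gave no ratio to the background for Ptprt or between the PTBP2 libraries for Ptprd. No paired analysis was possible because each group other than the background holds 1 library. What limits these values is the small number of Ptprt sites, the near-empty stretch around Ptprd in PTBP2 Rosa-PTBP1 and the lack of replicates.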

Other observations

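Intervals of Ptprd were listed on 4.51 lines each in FLAG wild-type replicate 1, against 1.05 in FLAG Rosa-PTBP1, 1.08 with PTBP2 loxp/loxp and 1.15 in PTBP2 wild type. For Ptprt they were listed on 4.32 lines in replicate 1, 2.24 in PTBP2 Rosa-PTBP1 and 1.04 in FLAG Rosa-PTBP1. What a repeated line stands for is not stated in the labels or headers.

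FLAG Rosa-PTBP1 and the PTBP2 loxp/loxp library listed 179 identical intervals in Ptprd and 5 in Ptprt, and no read name was shared between any libraries. FLAG Rosa-PTBP1 and PTBP2 wild type listed 56 identical intervals in Ptprd and 0 in Ptprt.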
